A study of Arabidopsis thaliana with 15 samples.

Results

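The genes described here were those with higher RNA in leaves that overexpress *ANAC046* and lower RNA, after dark treatment, in both kinds of plants in which *ANAC046* function is lost. *ANAC046* encodes a transcription factor of the NAC family in *Arabidopsis thaliana*. The members were chosen by their values in the authors' normalized table, turned into log2. For each gene the brightest probe was taken. A member had a mean difference of at least 1 between the overexpressor and wild type, a mean difference of -1 or lower for the knockout and for the repressor line against wild type in the dark, and a signal well above background on all 3 wild-type dark arrays. Of 34290 genes with a probe, 24913 met the background condition and 106 met the whole rule, *ANAC046* itself being left out. Since the members were selected on all 3 comparisons with wild type, their differences in them are given as a description, with no test of any member. Tests are given for members only between the repressor line and the knockout, and against wild type only for genes that are not members.

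One-color arrays were made from 5 groups of 3 samples each, all in the Col-0 background. Wild-type plants (WT) and 35S:ANAC046 plants (OX), which carry the gene behind the constitutive 35S promoter, were sampled as soil-grown leaves 50 days after sowing. After 5 days in the dark, samples were taken from WT, from the anac046 knockout (KO), a single transposon insertion line, and from 35S:ANAC046-SRDX plants (SRDX), in which ANAC046 is fused to a repression domain and driven by the same promoter. The 3 OX arrays and the 3 SRDX arrays each came from independent lines, called lines 1 to 3 after the replicate number in the labels. The labels call the dark-treated samples seedlings on agar, whereas the study's methods call them leaves. The KO and WT replicates are samples of 1 line each, so that p-values measure the spread between these samples, which may in part be technical.

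NAC proteins are plant transcription factors, several of which are known to speed up or slow down leaf senescence. In senescence, a leaf dismantles its chloroplasts, breaks down chlorophyll, exports nitrogen and sugars and finally dies, under the control of abscisic acid, ethylene and jasmonate. Developmental cell death, as in xylem vessels or the root cap, uses a set of nucleases and proteases that clear the cell. The SRDX domain turns an activator into a dominant repressor of its targets, so that relatives of the factor acting on the same promoters are also countered.

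The arrays were spread over 5 slides. Scanning took 2 days, the first for the leaf arrays and the second for the dark arrays. WT and OX leaf arrays and WT dark arrays each filled a slide of their own, SRDX lines 1 and 2 shared a slide, and SRDX line 3 lay with all KO arrays. In each comparison with WT, slide and genotype therefore cannot be told apart. The share of spots well above background was 62.2 to 68.7% on leaf arrays, 76.3 to 80.9% on WT dark arrays, 77.5 and 77.6% for SRDX lines 1 and 2, and 67.0 to 68.7% on the slide with KO and SRDX line 3. Each level given below is the log2 of a probe's signal, with the median of its array at 0 before quantile normalization of the 15 arrays, in the order of replicates 1, 2 and 3. *ANAC046* itself (AT3G04060) was at 0.42, 0.54 and 0.77 in WT leaf and at 2.64, 8.95 and 9.01 in OX. It was at 5.11, 5.35 and 5.22 in WT dark, at 6.29, 6.42 and 6.29 in SRDX and at -4.63, -4.38 and -4.53 in KO, where none of the arrays showed it well above background. OX line 1 thus carried far less of the transcript than lines 2 and 3, and no signal above background was detected at this probe in the knockout. Of 10 markers of leaf mesophyll, all were well above background on every array. Of 23 root markers, 14 were well above background on all WT dark arrays, against 4 in WT leaf, 4 in OX, 8 in SRDX and 7 in KO, and 4 in WT dark, 14 in WT leaf, 13 in OX, 6 in SRDX and 14 in KO were so on no array. The summed log2 level of the root markers was 2.48 to 2.86 in WT dark, 2.34 to 3.0995 in SRDX and 2.40 to 2.96 in KO. In leaf it was higher, at 4.46 to 4.59 in WT and 3.61 to 4.67 in OX, although fewer of the markers were well above background there. Counts and summed levels of the root markers thus ran in opposite directions between leaf and WT dark. None of the root markers was a member. The summed mesophyll level was 10.91 to 10.997 in WT dark, 11.36 to 11.89 in SRDX and 11.65 to 11.90 in KO. The part of tissue makeup in the differences of the members was not tested, and in whole tissue fewer cells of a type and less RNA per cell cannot be told apart.

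On the log2 scale of the table used for the choice, the median difference of the 106 members was 1.85 in OX (1.01 to 5.33), -1.51 in KO (-3.01 to -1.01) and -1.36 in SRDX (-3.16 to -1.01). The scanner values, which are less compressed, gave 2.55 (1.11 to 7.60), -1.97 (-3.96 to -1.001) and -1.63 (-4.60 to -1.02), and all 106 genes also met the rule on them. All genes tested had medians of -0.07, 0.03 and -0.04 for OX, KO and SRDX on the scanner scale. In WT leaf, 33 members were not well above background on any array, so that their OX differences are only bounds, 26 of them from at least 1.04-fold to at least 59.5-fold, with no fold for the other 7. With these genes set to their bounds, the medians were 2.22 in OX, -1.90 in KO and -1.60 in SRDX. With the signs of all 3 differences turned, the same thresholds were met by 50 genes. Genes changed the same way in all 3 comparisons numbered 7 upward and 2 downward. Of the 1216 genes that met the OX threshold, 1273 that met the KO threshold and 372 that met the SRDX threshold, 250 met both of the latter. The rule fixed all of these counts.

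The OX arrays of a member were all above the WT leaf arrays for 63 of 106 members, a pattern shown by 12.9% of all genes tested in leaf. All KO arrays were below all WT dark arrays for 98 members (20.6% of all genes tested in the dark), and all SRDX arrays for 105 (15.1%). Since the rule used these contrasts, nothing is read from the counts. The exception in SRDX was *SAG29*, whose WT dark arrays were far apart. With 3 arrays against 3, an exact permutation test of a single gene cannot go below 0.1.

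**Figure D1:**
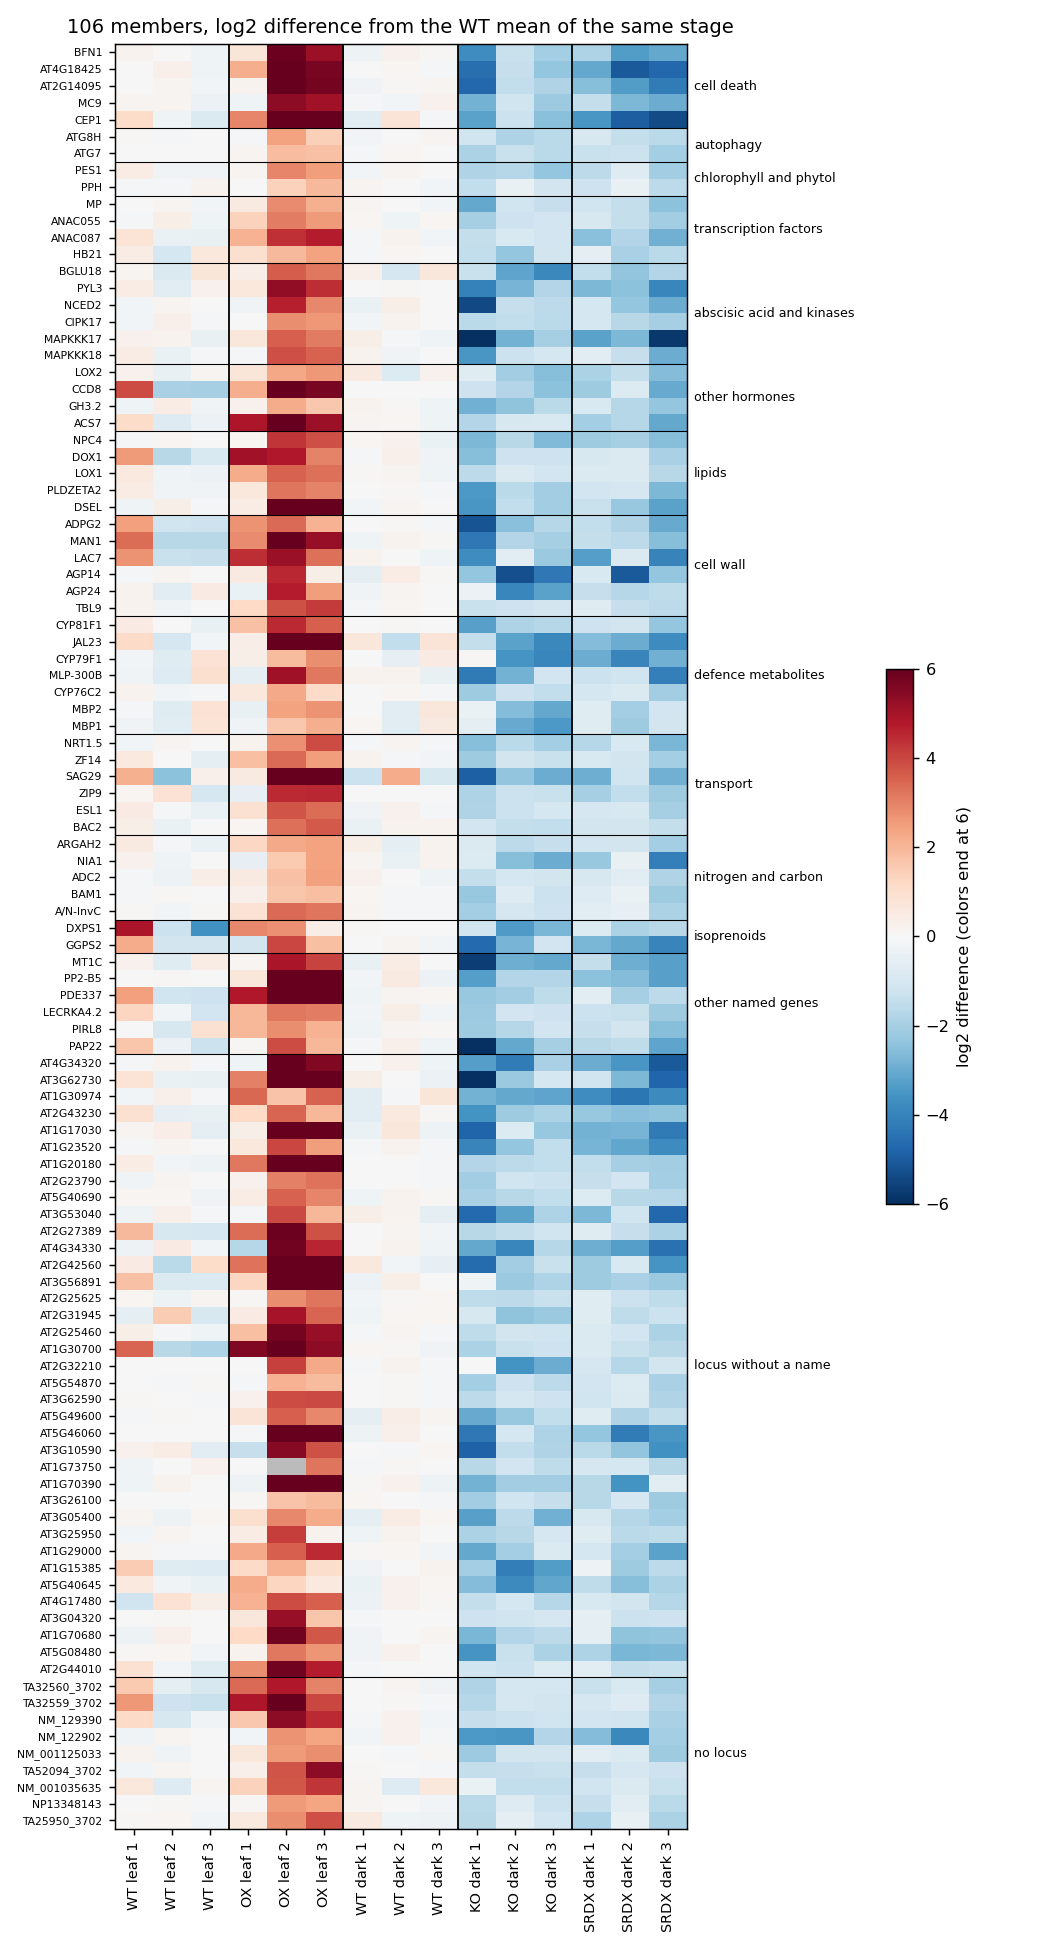
Log2 difference of each of the 106 members (rows, ordered by functional group) from the WT mean of the same stage on each of the 15 arrays (columns); red is higher, blue is lower, and gray marks the 1 missing value. OX line 1 is paler than lines 2 and 3 for most members, and KO replicate 1 and SRDX line 3 are the deepest blue.

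The levels of the members differed among the OX lines, with line 1 the lowest for most of them. The median difference from the WT leaf mean was 0.60 in OX line 1, 3.89 in line 2 and 3.23 in line 3. Line 1 was above all WT leaf arrays for 64 members, line 2 for 104 and line 3 for 102, where 28.7%, 34.8% and 40.9% of all genes were. Line 1 was the lowest of the 3 lines for 94 members, compared with 35.4% of all genes, and it was the highest for 3. In 21 members it lay below the WT mean, and in 38 it was at least 1 above it. The shares of all genes refer to those tested in leaf, among them 75 of the members. Since the rule asked for a high OX mean, nothing is read from the comparison with these shares. One member, *AT1G73750*, had no usable spot on the array of OX line 2, so that its OX mean rests on lines 1 and 3. Without OX line 1 the rule took 136 genes, among them 104 of the 106, and without line 2 it took 77.

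In a few members line 1 was not the lowest line. *DOX1*, which encodes an alpha-dioxygenase of fatty acids, was at 2.49, 2.30 and 0.42 in OX and at 0.04, -4.18 and -3.46 in WT leaf, well above background there on 1 array. The laccase gene *LAC7* was at 1.14, 1.88 and 0.04 in OX and at -0.56, -4.61 and -4.66 in WT leaf, again well above background on 1 array. In both genes line 3 was the lowest of the lines and lay within 1 of WT leaf replicate 1.

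Single arrays also stood apart within groups. WT leaf replicate 1 was over 1 above both other WT leaf arrays for 25 members, as against 1.21% of all genes tested in leaf. *CCD8*, of strigolactone synthesis, was at 0.78, -5.06 and -5.11 on the 3 arrays, and *DXPS1*, a deoxyxylulose phosphate synthase of the plastid isoprenoid pathway, at 3.34, -2.83 and -5.19. KO replicate 1 was over 1 below both other KO arrays for 32 members, compared with 1.90% of all genes tested in the dark. The rule used the means of these arrays, so nothing is read from these counts. The median difference from WT dark was -2.10, -1.56 and -1.59 for KO replicates 1 to 3. For SRDX it was -1.30 in line 1, -1.52 in line 2 and -2.12 in line 3, the line that shared the KO slide. The part of the slide in the lower values of line 3 was not tested.

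**Figure D2:**
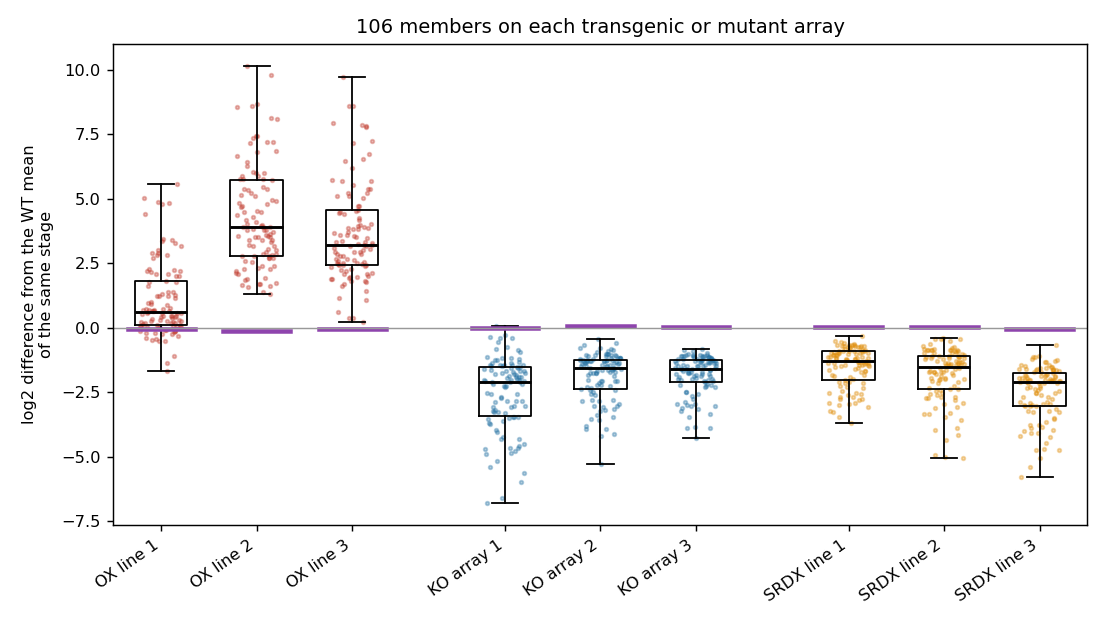
Log2 difference of the members from the WT mean of the same stage on each OX, KO and SRDX array; each point is a member, boxes show quartiles, whiskers the full range, and purple bars the median of all genes tested. The OX medians are 0.60, 3.89 and 3.23 in lines 1, 2 and 3, and all 6 dark medians lie between -2.12 and -1.30.

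In WT itself, 104 of the 106 members had a higher mean in the dark-treated samples than in leaf, with a median difference of 5.00, compared with 0.18 over all genes and 54.8% of genes higher. The nitrate reductase gene *NIA1* and the glucosinolate gene *CYP79F1* were the other two, at -2.89 and -2.05. The largest difference with a known name was 13.06 for *ADPG2*, which encodes a polygalacturonase of abscission and dehiscence zones. This gene was well above background on 1 WT leaf array only, so the size of its difference is uncertain. With 33 members well above background on no WT leaf array, the size of the median is uncertain as well. The rule required a signal well above background in WT dark and set no such condition in leaf, and the 2 sets also differ in age, growth medium and scan day, so this is given as a description only.

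The 12 members with the largest changes were ranked by the smallest of their 3 differences. The first was *AT4G34320*, with -1.49, -1.16 and -1.43 in WT leaf and -1.61, 5.48 and 4.18 in OX. It was at 4.07, 4.29 and 3.76 in WT dark, 0.72, -0.18 and 2.09 in KO and 1.06, 0.56 and -0.995 in SRDX. OX line 1 lay just below the WT leaf arrays and lines 2 and 3 far above them, while all KO and SRDX arrays lay below all WT dark arrays. The mean was 16.4-fold higher in OX, 8.95-fold lower in KO and 14.2-fold lower in SRDX. *AT4G34330*, a locus with 1 gene between it and *AT4G34320*, was also a member. *MT1C*, a metallothionein gene, was at 3.94, 2.96 and 4.10 in WT leaf and 3.79, 8.58 and 7.71 in OX. In the dark it was at 4.51, 5.40 and 4.92 in WT, -0.71, 1.998 and 1.89 in KO and 3.52, 2.02 and 1.67 in SRDX. Line 1 lay within the WT leaf range, and the KO mean was 14.8-fold lower than that of WT, compared with 5.83-fold for SRDX.

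*ADPG2* was at -1.50, -5.15 and -5.21 in WT leaf, where only replicate 1 was well above background, and at -1.24, -0.56 and -1.87 in OX. After the dark treatment the values were 9.09, 9.19 and 9.02 in WT, 3.92, 6.60 and 7.39 in KO and 7.61, 7.31 and 6.10 in SRDX. The OX arrays overlapped with WT leaf replicate 1, whereas the mean in the dark was 8.76-fold lower in KO and 4.27-fold lower in SRDX. *AT3G62730* was at -1.58, 2.75 and 3.99 in OX and not well above background on any WT leaf array, at least 19.1-fold higher in OX. It was at 3.77, 3.38 and 3.07 in WT dark, -3.22, 1.17 and 2.33 in KO and 2.20, 0.71 and -1.33 in SRDX. All arrays of both loss lines were below WT, with KO replicate 1 the lowest. *BGLU18*, a glucosidase that releases abscisic acid from its glucose ester, was at 6.37, 5.32 and 6.91 in WT leaf and 6.62, 9.82 and 9.38 in OX. Its dark values were 7.74, 6.40 and 8.10 in WT, 6.07, 4.27 and 3.53 in KO and 5.95, 5.04 and 5.64 in SRDX. Line 1 again lay among the WT leaf arrays, and the dark means were 6.91-fold and 3.64-fold lower. Its other 2 probes met the thresholds as well, whereas the other probe of *ADPG2* missed that for OX, with 0.75 on the scale of the table.

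*NPC4*, a phospholipase C acting on membrane lipids, was at -4.99, -0.80 and -1.22 in OX and -2.42, -2.28 and -2.96 in WT dark, and no WT leaf, KO or SRDX array showed it well above background. This bounds its differences at 1.15-fold higher in OX or more, and at least 1.24-fold and 2.17-fold lower in KO and SRDX. *AT1G30974* was at -1.65, -3.39 and -1.54 in OX and -0.74, -0.21 and 0.58 in WT dark. It was at -3.83, -4.47 and -3.96 in SRDX, well above background on 1 array there and on no KO array, and was at least 6.67-fold lower in KO. Line 1 was close to line 3 for this gene. Its other probe was lower in OX than in WT leaf by 0.56 on the scale of the table, the 1 probe of 38 that differed in direction. *LOX2*, a chloroplast lipoxygenase of jasmonate synthesis, was at 7.97, 7.30 and 7.91 in WT leaf and 8.46, 10.02 and 10.34 in OX. The dark arrays gave 9.43, 8.10 and 9.18 in WT, 8.16, 6.83 and 6.34 in KO and 7.004, 7.46 and 6.28 in SRDX. All OX arrays were above all WT leaf arrays, and KO replicate 1 overlapped with WT dark. The fold differences were 3.68 up, 3.46 down and 3.97 down. Another *LOX2* probe missed every threshold, with 0.86, -0.96 and -0.75 for OX, KO and SRDX on the scale of the table, while the rest met them. The other 4 of the 12 belong to the cell-death list below.

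**Figure D3:**
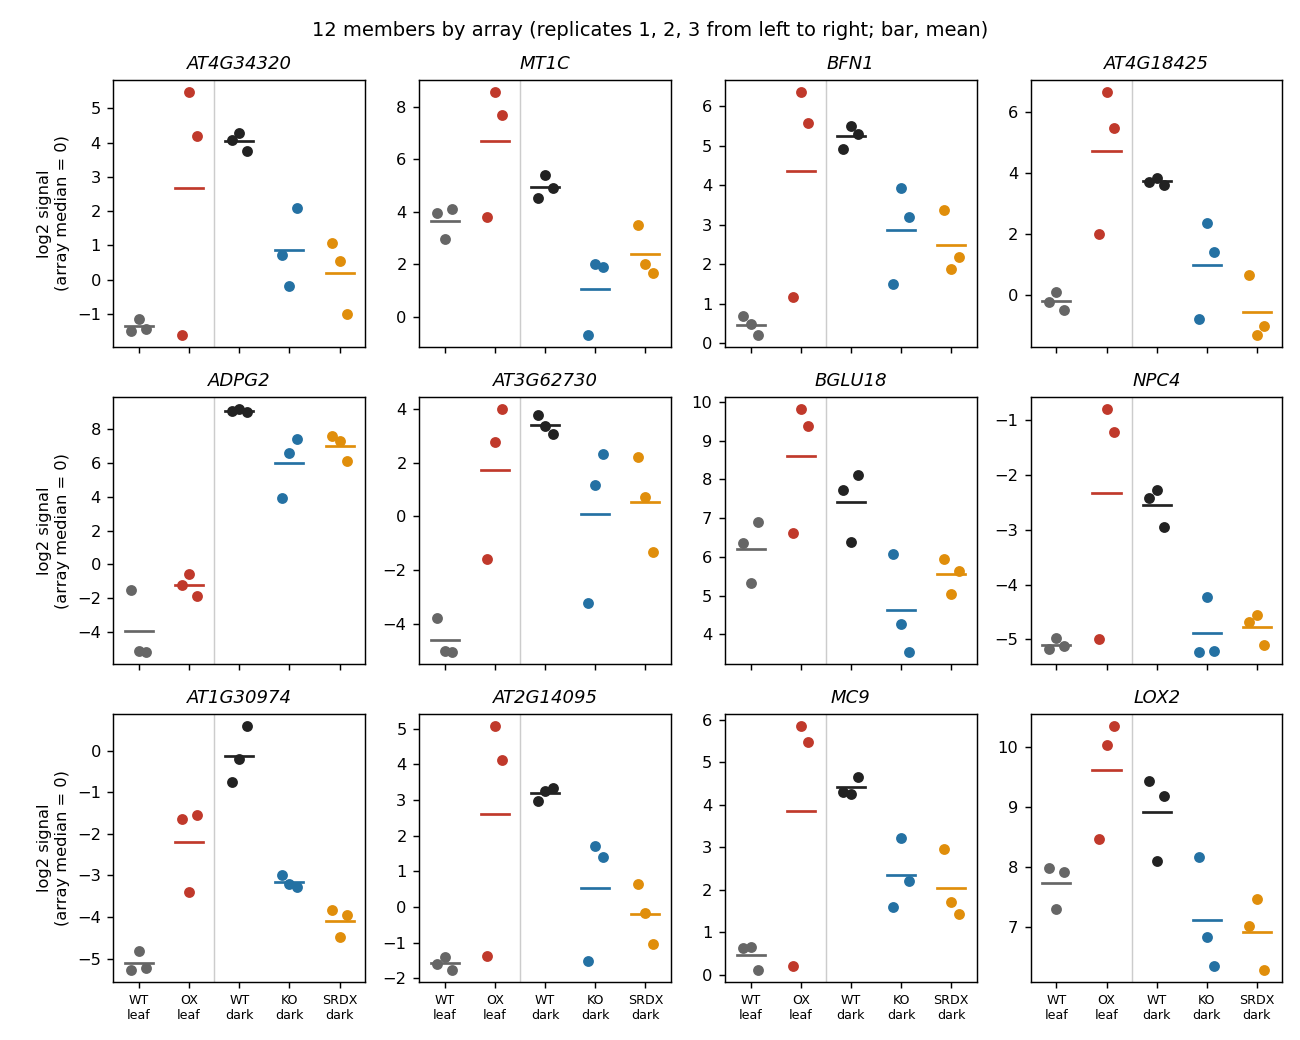
Log2 signal relative to the array median (each panel has its own axis) for the 12 members with the largest smallest difference, with 1 point per array, replicates from left to right, and a bar at the group mean. OX line 1 is the lowest OX point in 10 of the 12 panels, and KO and SRDX lie below WT dark, with the overlap of 1 KO array in *LOX2*.

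Among the functional groups of members, genes of developmental cell death had the highest median OX difference, 4.198, and the lowest median SRDX difference, -3.375. Their KO median of -2.36 was less extreme than that of some other groups. The group has 5 genes, and *AT4G18425* and *AT2G14095* were placed in it only through the list. The rule used these differences, so nothing is read from the order of the groups. Of 8 genes on a list of its markers, 5 were members, namely *BFN1*, *CEP1*, *MC9*, *AT4G18425* and *AT2G14095*. *BFN1* encodes a nuclease of dying xylem and senescing leaves, and was at 0.68, 0.50 and 0.21 in WT leaf and 1.17, 6.37 and 5.58 in OX. WT dark was at 4.91, 5.51 and 5.30, KO at 1.51, 3.93 and 3.205 and SRDX at 3.38, 1.88 and 2.19. The groups did not overlap in any of the 3 comparisons, with means 15-fold higher, 5.14-fold lower and 6.76-fold lower. *CEP1*, a papain-like protease, was at -1.55, -2.91 and -3.51 in WT leaf, well above background on 1 array, and 0.26, 7.50 and 7.08 in OX. It had the largest OX difference of all members, 7.60 on the log2 scale. In the dark it was at -0.35, 1.12 and 0.22 in WT, -2.87, -0.95 and -2.18 in KO and -3.15, -4.61 and -5.06 in SRDX, where 1 array was well above background. *MC9*, a metacaspase that acts in the clearing of xylem cells, was at 0.62, 0.65 and 0.12 in WT leaf and 0.20, 5.85 and 5.48 in OX. Its dark values were 4.31, 4.26 and 4.65 in WT, 1.58, 3.22 and 2.21 in KO and 2.96, 1.71 and 1.43 in SRDX. Line 1 lay within the WT leaf range for *MC9*, whereas it exceeded every WT leaf array for *BFN1* and *CEP1*.

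*AT4G18425* was at -0.24, 0.09 and -0.49 in WT leaf and 1.98, 6.65 and 5.48 in OX. After the dark treatment the values were 3.70, 3.84 and 3.61 in WT, -0.79, 2.34 and 1.41 in KO and 0.64, -1.32 and -1.02 in SRDX. The differences of 4.91, -2.73 and -4.28 were free of overlap. *AT2G14095* was at -1.60, -1.40 and -1.75 in WT leaf, -1.36, 5.07 and 4.14 in OX, 2.96, 3.26 and 3.34 in WT dark, -1.52, 1.71 and 1.40 in KO and 0.64, -0.17 and -1.03 in SRDX. Its line 1 was just above the highest WT leaf array. The 3 genes of the list outside the rule were *RNS3*, a ribonuclease, *PASPA3*, an aspartic protease, and *SCPL48*, a carboxypeptidase-like protein. *PASPA3* was at 0.92, 0.36 and 0.44 in WT leaf, 1.29, 9.63 and 9.30 in OX, 1.91, 2.001 and 1.78 in WT dark, 0.20, 0.48 and -0.08 in KO and -0.07, 0.48 and -0.36 in SRDX, and thus shows the same order with a smaller loss in the dark. By limma over all genes, *RNS3* differed from WT by -1.89 in KO and -3.41 in SRDX (adjusted p = 0.0838 and 0.0271). The limma values were -1.70 and -1.88 for *PASPA3* (adjusted p = 0.0136 and 0.0135) and -0.94 and -1.03 for *SCPL48* (adjusted p = 0.0387 and 0.0413).

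At an adjusted p under 0.15, these 3 genes were thus called lower in both lines, where 14.2% of all genes were called lower in KO and 8.77% in SRDX. The 5 members are not counted, since they were selected on these contrasts. The list itself was chosen with earlier results of these data known, so the calls are no independent support for it. None of the 3 was called in OX, where 0.0979% of all genes were called in either direction. At an unadjusted p under 0.05, 2 of them were higher in OX, as were 9.34% of all genes, and without OX line 1 all 3 were called higher, as were 24.1% of all genes. One fit of all 15 arrays left 0 calls in KO and 1 in SRDX. The median differences of the whole list, given as a description, were 4.05 in OX, -2.20 in KO and -3.07 in SRDX. A list of suberin genes, described below, had a higher OX median, 4.53.

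Breakdown of cell contents was also represented. *ATG8H*, a ubiquitin-like protein of the autophagosome membrane, differed by 1.23 in OX, -1.56 in KO and -1.33 in SRDX. *ATG7*, the enzyme that activates ATG8 proteins, differed by 1.27, -1.64 and -1.56. *PPH*, which removes phytol from pheophytin in chlorophyll breakdown, was at 6.56, 6.56 and 6.89 in WT leaf and 6.67, 8.07 and 8.60 in OX. The dark arrays gave 8.46, 8.29 and 8.12 in WT, 6.82, 7.84 and 7.21 in KO and 7.06, 7.84 and 6.71 in SRDX, below all WT arrays in both. It was the member with the smallest scanner-scale change in OX and KO, 2.16-fold and 2-fold. *PES1*, which esterifies the freed phytol with fatty acids, differed by 1.87, -1.94 and -1.46. Of 12 chlorophyll catabolic genes *PPH* was the only member. Of the other 11, 5 were called lower and 3 higher in KO (14.2% and 18.2% of all genes), and 5 lower and 3 higher in SRDX (8.77% and 11.6% of all genes). Among those outside the rule, *NYC1* missed it on the SRDX threshold alone, with -0.99 on the scale of the table. Of 14 senescence-associated genes 1 was a member, *SAG29*, and of the other 13, 5 were called lower in KO (14.2% of all genes), 3 lower in SRDX (8.77%) and none higher in either (18.2% and 11.6%).

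Of the transcription factors, *ANAC087*, the closest relative of *ANAC046* in sequence per the study, was at 1.07, -0.17 and -0.20 in WT leaf and 2.33, 4.61 and 4.96 in OX. WT dark was at 6.29, 6.56 and 6.17, KO at 4.91, 5.43 and 5.20 and SRDX at 3.81, 4.57 and 3.44. No group overlapped with its WT arrays, and the SRDX mean was 5.27-fold lower than WT, compared with 2.24-fold for KO. *ANAC055*, a NAC factor responsive to abscisic acid and jasmonate, was at 0.20, 0.68 and 0.054 in WT leaf and 1.69, 3.37 and 2.86 in OX. It was far brighter in the dark, at 8.77, 8.41 and 8.77 in WT, 6.65, 7.39 and 7.50 in KO and 7.66, 7.21 and 6.57 in SRDX, again with no overlap with WT. *HB21*, a homeodomain factor, was not well above background on any WT leaf array and was at least 1.46-fold higher in OX, with -1.63 in KO and -1.36 in SRDX. *MP* (MONOPTEROS), an auxin response factor, differed by 1.84, -1.86 and -1.68. Of 17 NAC genes other than *ANAC046*, *ANAC055* and *ANAC087* were members. Of the other 15, 5 were called lower in KO (14.2% of all genes) and 3 in SRDX (8.77%), with none higher (18.2% and 11.6%). *NAP*, *ORE1* and *ORS1* are also on the list of senescence-associated genes, so the counts of the lists are not separate results. Of these shared genes, *ORE1* and *ORS1* were called lower in KO, and *NAP* and *ORE1* in SRDX. In OX, *ORE1* and *ORS1* differed by -0.61 and -0.42, and *NAP* by 0.56.

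Members tied to abscisic acid covered its synthesis, release, perception and signaling. *NCED2*, of the dioxygenase family that makes its precursor, was at 3.41, 4.17 and 3.84 in WT dark, -1.60, 2.44 and 2.22 in KO and 2.73, 1.49 and 0.82 in SRDX. The receptor gene *PYL3* was at 2.67, 2.78 and 2.68 in WT dark, -1.33, -0.10 and 0.95 in KO and 0.03, 0.24 and -1.19 in SRDX. Neither was well above background on any WT leaf array, and OX was at least 1.04-fold higher for *NCED2* and at least 2.84-fold for *PYL3*. *MAPKKK17* encodes a kinase induced by abscisic acid, and was at -0.38, -0.40 and -1.08 in WT leaf and 0.06, 2.95 and 2.48 in OX. In the dark it was at 6.18, 5.74 and 5.56 in WT, -0.98, 2.98 and 3.85 in KO and 2.61, 3.11 and 0.04 in SRDX. Neither OX nor the loss lines overlapped with their WT arrays, and its means were 14.7-fold and 15-fold lower in KO and SRDX. Its near relative *MAPKKK18* was at -1.36, -2.21 and -1.86 in WT leaf, well above background on 2 arrays, -1.90, 2.04 and 1.73 in OX, 6.02, 5.60 and 5.75 in WT dark, 2.28, 4.50 and 4.75 in KO and 5.10, 4.43 and 2.82 in SRDX. Line 1 lay within the WT leaf range for it. *CIPK17*, a kinase of calcium signaling, differed by 1.80, -1.58 and -1.58. On a list of 24 genes of abscisic acid response, the 2 MAPKKK genes were the only members. Of the other 22, 6 were called lower and 8 higher in KO (14.2% and 18.2% of all genes), and 2 lower and 5 higher in SRDX (8.77% and 11.6%). *HAI1*, called lower in KO, is also on the list of senescence-associated genes and is counted in both.

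Other hormone pathways had 1 member or 2 each. *ACS7*, an ACC synthase of the ethylene pathway, was at 0.72, 2.29 and 0.97 in OX and not well above background on any WT leaf array, at least 14.5-fold higher. After the dark treatment the values were 4.61, 4.55 and 4.201 in WT, 2.68, 3.51 and 3.53 in KO and 2.43, 2.74 and 1.40 in SRDX, with all arrays of both loss lines below all WT arrays. On a list of 12 ethylene genes it was the only member. Of the other 11, 4 were called lower and 1 higher in KO (14.2% and 18.2% of all genes), and 3 lower and 0 higher in SRDX (8.77% and 11.6%). *CCD8* differed by -1.83 and -1.996 in the dark, and *GH3.2*, which joins auxin to amino acids, by -2.30 and -1.64. Of 16 jasmonate genes *LOX2* was the only member. Of the other 14 tested in the dark, 5 were called lower and 1 higher in KO (14.2% and 18.2% of all genes), and 5 lower and 0 higher in SRDX (8.77% and 11.6%). None of 20 suberin genes was a member. Among the 7 tested in the dark, none was called lower in either line (14.2% of all genes in KO and 8.77% in SRDX). In each line 2 were called higher (18.2% and 11.6%), and the median of the 9 tested in OX was 4.53.

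Genes of lipid turnover were *LOX1*, *DOX1*, *NPC4*, *PLDZETA2* and *DSEL*. *DSEL*, a lipase, was not well above background in WT leaf and at -2.63, 5.51 and 4.77 in OX, at least 34-fold higher. The dark arrays gave 1.03, 1.37 and 1.22 in WT, -2.27, -0.25 and -0.90 in KO and -0.11, -1.05 and -2.02 in SRDX. *PLDZETA2*, a phospholipase D, was at 4.35, 4.42 and 4.28 in WT dark, 0.90, 2.72 and 2.27 in KO and 3.18, 3.35 and 1.67 in SRDX. No array of KO or SRDX reached WT for either gene. *LOX1*, a lipoxygenase outside the jasmonate route, differed by 3.02, -1.19 and -1.12.

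Of the 6 cell-wall genes, *MAN1*, a mannanase, was at 4.53, 5.03 and 4.86 in WT dark, 0.51, 3.05 and 2.80 in KO and 3.37, 3.25 and 2.26 in SRDX. *AGP24*, an arabinogalactan protein, was at 6.92, 7.26 and 7.15 in WT dark, 6.74, 3.201 and 3.88 in KO and 5.73, 5.40 and 5.61 in SRDX. For *AGP24* it was KO replicate 1 that lay closest to WT, in contrast to most members. *AGP14* had the largest KO difference of all members by measured values, -3.96, with -1.94, -4.90 and -3.91 in KO. It was well above background there on 1 array only, so its size and rank are uncertain. *MT1C* and *MAPKKK17*, well above background on all KO arrays, both differed by -3.88. *LAC7* differed by 4.29, -2.19 and -2.72, and *TBL9*, of a family that acetylates wall polymers, by 3.07, -1.24 and -1.22.

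The 7 genes of defence metabolites were mostly of the glucosinolate system, in which thioglucosides are cleaved by myrosinase. *CYP79F1*, which starts the synthesis of aliphatic glucosinolates, was at 1.96, 1.41 and 2.98 in WT leaf and 2.46, 4.03 and 4.91 in OX. WT dark was at 0.07, -0.43 and 0.56, KO at 0.148, -3.49 and -3.83 and SRDX at -2.92, -3.91 and -2.84, so that KO replicate 1 was at the WT level. The myrosinase-binding protein genes *MBP1* and *MBP2* are neighbors in the genome and close in sequence, so their probes may share signal. *MBP1* was at 2.15, 1.74 and 3.17 in WT leaf, 2.14, 3.98 and 4.54 in OX, 3.89, 3.11 and 4.33 in WT dark, 3.23, 0.74 and 0.32 in KO and 3.06, 1.65 and 2.65 in SRDX. KO replicate 1 overlapped with WT dark and OX line 1 with WT leaf in this gene. *MBP2*, the related *MLP-300B* and the lectin gene *JAL23* had KO differences of -2.02, -2.75 and -2.84. The indole glucosinolate gene *CYP81F1* differed by 3.29, -2.26 and -1.55, and the cytochrome P450 gene *CYP76C2* by 1.35, -1.60 and -1.34.

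Transport genes were the nitrate transporter *NRT1.5*, the sugar transporters *SAG29* and *ESL1*, the zinc transporter *ZIP9*, the mitochondrial amino acid carrier *BAC2* and *ZF14* of the MATE family. *SAG29* (SWEET15) was at -0.59, -5.18 and -2.40 in WT leaf and -2.18, 5.85 and 5.21 in OX, well above background on 2 arrays of each. In the dark it was at 0.54, 4.07 and 0.87 in WT, -3.09, -0.55 and -1.13 in KO and -1.11, 0.62 and -1.04 in SRDX. WT dark replicate 2 was far above the other two, and SRDX line 2 overlapped with them. *NRT1.5* was more even, at 5.85, 6.07 and 5.85 in WT dark, 3.36, 4.30 and 3.90 in KO and 4.21, 4.99 and 3.17 in SRDX. Over the group, differences ran from 2.29 to 5.68 in OX, from -3.41 to -1.34 in KO and from -2.33 to -1.22 in SRDX.

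Nitrogen and carbon metabolism was represented by *NIA1*, the arginine-degrading *ARGAH2* and *ADC2*, the starch-degrading beta-amylase gene *BAM1* and the invertase gene *A/N-InvC*. *NIA1* was at 5.57, 5.03 and 5.33 in WT leaf and 4.82, 6.89 and 7.74 in OX. After the dark treatment the values were 2.60, 2.01 and 2.65 in WT, 1.58, -0.15 and -0.57 in KO and 0.154, 1.999 and -1.66 in SRDX. SRDX line 2 almost reached the lowest WT array, and line 3 was the lowest of all. *A/N-InvC* was at 1.996, 1.76 and 2.003 in WT leaf, 2.79, 5.32 and 5.15 in OX, 7.39, 7.16 and 7.10 in WT dark, 5.19, 6.20 and 5.95 in KO and 6.53, 6.71 and 5.33 in SRDX. The other 3 differed by 1.25 to 1.99 in OX. The isoprenoid genes were *DXPS1* and *GGPS2*, a geranylgeranyl diphosphate synthase, with KO differences of -2.44 and -2.86.

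The other named members were *MT1C*, *PAP22*, *PP2-B5*, *PIRL8*, *PDE337* and *LECRKA4.2*. *PAP22*, a purple acid phosphatase, was at 3.01, 3.35 and 2.82 in WT dark, -2.91, 0.01 and 1.06 in KO and 1.37, 1.56 and -0.11 in SRDX. *PP2-B5*, related to phloem lectins, was at -4.48, 2.001 and 1.31 in OX and at least 4.42-fold higher there, and was not well above background on any KO or SRDX array. The leucine-rich repeat gene *PIRL8*, the lectin kinase gene *LECRKA4.2* and *PDE337* differed by -1.67, -1.53 and -1.94 in KO.

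Of the 39 members with a locus but no gene name in the annotation used, *AT4G18425* and *AT2G14095* were placed with the cell-death genes. The other 37 form a group of their own. Besides those described, they were AT2G43230, AT1G17030, AT1G23520, AT1G20180, AT2G23790, AT5G40690, AT3G53040, AT2G27389, AT2G42560, AT3G56891, AT2G25625, AT2G31945, AT2G25460, AT1G30700, AT2G32210, AT5G54870, AT3G62590, AT5G49600, AT5G46060, AT3G10590, AT1G70390, AT3G26100, AT3G05400, AT3G25950, AT1G29000, AT1G15385, AT5G40645, AT4G17480, AT3G04320, AT1G70680, AT5G08480 and AT2G44010. Their differences ran from 1.22 to 6.95 for OX, from -3.31 to -1.10 for KO and from -3.96 to -1.02 for SRDX. The largest OX value was that of AT2G42560, which was not well above background in WT leaf and at least 59.5-fold higher in OX. The remaining 9 are known on the array only by a transcript sequence that matched no locus, and differed by 1.64 to 4.95, -2.90 to -1.12 and -2.84 to -1.13.

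**Figure D4:**
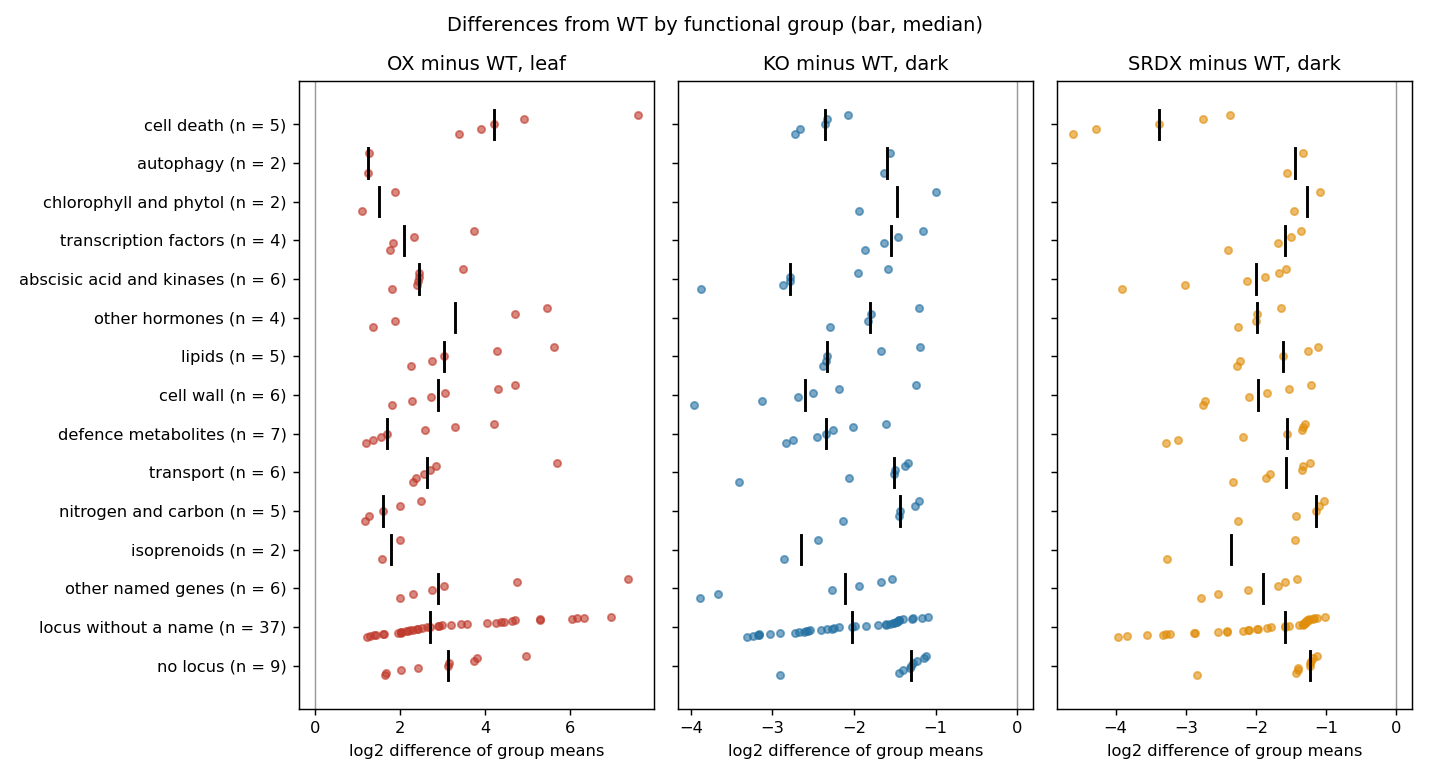
Log2 differences of group means for OX, KO and SRDX against WT of the same stage, with a point per member, rows for functional groups (n in parentheses) and a bar at the median; members not well above background in WT leaf are drawn at their measured values. Among these groups, the 5 cell-death genes have the highest OX median, 4.198, and the lowest SRDX median, -3.375. The rule used these differences, so nothing is read from this order.

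In their positions, the members were spread over all chromosomes, with 29, 17, 21, 14 and 16 of the 97 with a locus on chromosomes 1 to 5. This is 29.9, 17.5, 21.6, 14.4 and 16.5% of them, where 26.2, 15.6, 19.9, 15.04 and 23.3% of all genes with a probe lie. Direct neighbors were *MBP1* with *MBP2* and AT2G23790 with *GGPS2*, and 4 more pairs had at most 10 genes between them. These were *AT4G34320* with *AT4G34330*, *GH3.2* with *CYP81F1*, AT5G40645 with AT5G40690, and AT5G40690 with *AGP24*. Of the 106 members, 32 had 38 further probes. All 38 were well above background in WT dark, 20 met all 3 thresholds and 37 had the same 3 directions, on the scale of the table. Another probe missed every threshold for *CYP79F1*, *HB21*, *JAL23*, *LOX2*, AT2G23790, AT2G44010, AT3G25950 and a member without a locus. The other probe of AT5G40645 had an OX difference of 0.04. All of the further probes share samples with the chosen ones and are no independent replicates.

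At the thresholds, on the scale of the table, *MBP1* was just inside the OX limit with 1.01, and *RSH2* just outside with 0.99. *RSH2* was at 3.06, 3.21 and 2.85 in WT leaf, 3.09, 4.50 and 5.02 in OX, 8.42, 8.36 and 8.26 in WT dark, 6.81, 7.47 and 7.49 in KO and 6.91, 7.40 and 6.22 in SRDX. For KO, a member without a locus was just inside with -1.01, and *PMZ* just outside with -0.98. The former was at 1.44, 1.47 and 1.21 in WT leaf, 1.96, 4.16 and 5.24 in OX, 5.65, 4.88 and 4.83 in WT dark, 3.45, 4.51 and 3.96 in KO and 3.27, 4.68 and 3.23 in SRDX. *PMZ* was at -0.11, -1.75 and -1.97 in WT leaf, -0.72, 2.87 and 2.78 in OX, 7.29, 7.59 and 7.24 in WT dark, 6.38, 6.19 and 6.65 in KO and 6.75, 6.52 and 5.79 in SRDX. For SRDX, *A/N-InvC* was just inside with -1.01 and *AT4G27654* just outside with -0.99. *AT4G27654* was at -0.63, 1.79 and 2.01 in WT dark, 2.63, -1.82 and -4.12 in KO and -0.15, -3.92 and 2.11 in SRDX, with far more spread than the members. When each array was left out in turn, 39 members met the rule in all 15 sets, among them all 12 of the largest changes, and the other 67 were lost in at least 1.

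The levels of the members in the repressor line and in the knockout were compared by testing SRDX against KO. The rule set no limit on this contrast itself, but it asked both lines to lie at least 1 below the same WT arrays, so the choice of the members limits how far the lines can differ, and nothing is read from the number of calls. No member was called, with 0.274% of all genes called in either direction, and the lowest adjusted p was 0.197 (limma). At an unadjusted p under 0.05 there were 6 members, 2 higher and 4 lower in SRDX, while 3009 of all genes (11.9%) passed the same limit. The median difference was 0.11, with 64 members higher and 42 lower in SRDX, and a median of -0.04 over all genes. All SRDX arrays were below all KO arrays for 3 members, where 7.99% of all genes were, and above them for 1, where 3.59% were. The differences ran from -2.27 to 1.83, and 12 exceeded 1 in size. For 36 members the 95% interval lay within 1 on either side of 0. For the others the interval reached beyond 1 in at least 1 direction.

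Members with lower values in SRDX at the unadjusted limit were *ANAC087*, *CEP1*, *ACS7* and *AT1G30974*. For *ANAC087* the difference by limma was -1.24 (95% interval -1.89 to -0.58, adjusted p = 0.197), and all SRDX lines were below all KO arrays. For *CEP1*, well above background on 1 SRDX array, the limma difference was -2.27 (-3.72 to -0.83, adjusted p = 0.258), and it was -1.68 on the authors' table and -0.66 after normexp background correction. For *ACS7* it was -1.05 (-1.89 to -0.21, adjusted p = 0.331 by limma). *AT1G30974* was well above background on no KO array and on 1 SRDX array, so that no size is given for it. The limma difference was positive for AT1G15385, at 1.83 (0.52 to 3.15, adjusted p = 0.293), with 4.09, 1.97 and 2.76 in KO and 5.81, 3.99 and 4.53 in SRDX, and for AT5G40645, at 1.19 (0.34 to 2.04, adjusted p = 0.293), with -0.17, -1.41 and -0.68 and 0.92, -0.14 and 0.54. On the authors' table the latter difference was 0.53. Over all members the comparison differed between the slides. SRDX line 3, on the KO slide, had a median of -0.48 against the KO mean and was higher for 25 members, whereas lines 1 and 2 had a median of 0.38. Without KO replicate 1, 14 members were called, 7 higher and 7 lower, among the lower *CEP1*, *AT4G18425*, *AT2G14095*, *ANAC087* and *ACS7*, while 6.57% of all genes were called. Without SRDX line 2 or line 3, *ANAC087* was the only member called, where 0.75% and 12.4% of all genes were.

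**Figure D5:**
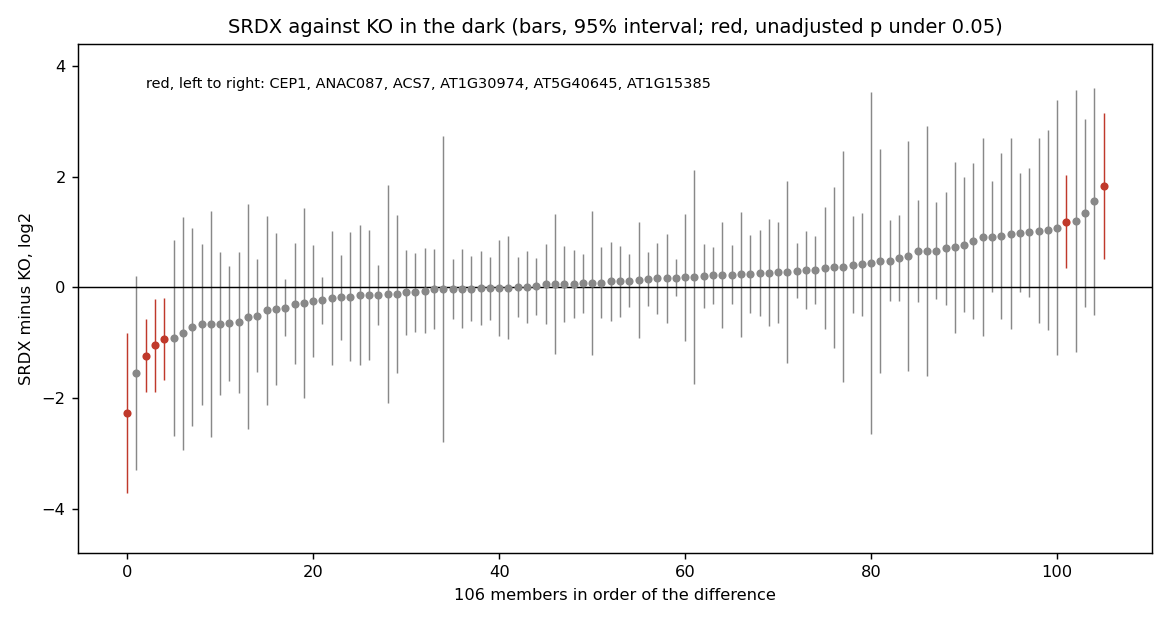
Log2 difference of SRDX from KO in the dark for the 106 members in order of the difference, with 95% intervals from limma; the 6 members with an unadjusted p under 0.05 are red. The differences run from -2.27 (*CEP1*) to 1.83 (AT1G15385), and none passes the limit after adjustment.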

How the data were processed

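Total RNA of 15 samples (5 groups of 3) was hybridized to one-color Agilent 4 x 44k Arabidopsis arrays. The scanner intensities were deposited after local background subtraction and spatial detrending by Feature Extraction, version 11.5.1.1 per the file headers and 9.1.3.1 per the submitters' processing notes, and were not scaled between arrays. The authors' normalized table holds the natural log of signals divided by the array median and quantile normalized together with earlier arrays not used here. The base was read from the values, since differences between arrays of a group matched the ln of the intensities within 0.0001 in 15 of 15 pairs. All values were turned into log2.

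The rule for the members was applied to the authors' table. For levels and tests, spots failing either outlier filter were left out, processed signals were divided by the array median, spots of a probe were averaged and the 15 arrays were quantile normalized. Of 43603 probes, 34330 (78.7%) matched one of 25398 loci through the TAIR10.1 RefSeq gene table, which also gave the names, and the other 9273 were kept under their transcript. A gene was represented by its brightest probe over all arrays. The test was the 2-sided moderated test of limma 3.58.1 (R 4.3.3), run on genes with a signal well above background throughout 1 of the compared groups or more, in 1 fit for leaf and 1 for the dark, with Benjamini-Hochberg adjustment over all genes tested and the study's limit of 0.15. The fit was tested on simulated data. Figures were drawn with matplotlib 3.10.9. Where no array of a group was well above background, only a bound is given ("at least N-fold"), which is the bright group's mean against the higher, per array, of the probe's own signal and the dimmest signal that still counted as well above background. The number of arrays sets the precision, and 95% intervals come from limma.

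The members and the gene lists were chosen with earlier results of these data known. Each member was placed in a functional group by its annotated name, apart from *AT4G18425* and *AT2G14095*, which have no such name and are on the cell-death list. Values per array are given for the 12 with the largest smallest-of-3 change, for members of the lists and for genes at the limits of the rule. They are also given for examples of each group chosen after their values were seen. Alternatives were another scaling, the authors' table, normexp with an offset of 50 on median signals, other filters, limits and adjustments, 1 fit of all arrays, the replicate number or slide as a block, and leaving out each array in turn. Counts at an unadjusted p, the list counts without members and the alternatives for the cell-death list were added after seeing the data.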

Additional observations from a re-analysis of the deposited data

How the results depend on the processing

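The rule took 106 genes from the authors' table, 270 from quantile-normalized scanner intensities (all 106 among them) and 358 after scaling to the 75th percentile of each array (97 among them). It took 22 at a threshold of 1.5, 236 at 0.8 and 47 when a signal well above background was asked of all 15 arrays, while all probes, the mean of probes, no background condition and group medians gave 112, 99, 109 and 126. Leaving out each array in turn gave 75 (without SRDX line 3) to 150 (without SRDX line 1). No member differed in direction from WT in any of the 3 comparisons after 75th percentile scaling, where the medians of the members were 2.69, -2.10 and -1.64.

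By limma at an adjusted p under 0.15, 20 genes were called for OX against WT (19 higher, 1 lower), 8162 for KO against WT (4591 higher, 3571 lower), 5132 for SRDX against WT and 69 for SRDX against KO. With 75th percentile scaling the numbers were 56 for OX against WT and 167 for SRDX against KO, and the split for KO against WT turned to 3765 higher and 5408 lower. At an adjusted p under 0.05 they were 1, 3093, 1606 and 18 in the same order, and with Storey's q-values 12094, 13452, 9000 and 262. Without the filter on dim probes they were 71 for OX against WT and 118 for SRDX against KO, with normexp 34 for SRDX against KO, and at an unadjusted p under 0.05 4722 for OX against WT and 3009 for SRDX against KO. One fit of all 15 arrays called 5696 genes for OX against WT. The slide as a random block gave 4765 for KO against WT and 26 for SRDX against KO, and could not be fitted for OX against WT, where each group lay on its own slide. Leaving out each array in turn gave 0 to 11605 for OX against WT (the highest without OX line 1), 3026 to 10741 for KO against WT (the lowest without WT dark replicate 2), 998 to 9610 for SRDX against WT (the lowest without WT dark replicate 2) and 18 to 3129 for SRDX against KO (the highest without SRDX line 3). The cause of these differences was not tested.

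The replicate number as a block left 0 genes for OX against WT and 14 for SRDX against KO. Same-numbered arrays correlated from -0.26 to 0.61 in their deviations from the group means, and not every array did so best with its own number. The numbers were therefore not used as pairs in the main fit, although this check cannot exclude pairing.

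Between SRDX and KO, 0 members were called under each other scaling, filter, adjustment, limit, fit and block tried. On leaving out an array, the number ran from 0 to 14, while 6 passed an unadjusted p under 0.05. Of the 3 cell-death genes outside the members, 3 were called lower in KO and 3 in SRDX, against 0 and 1 in the fit of all 15 arrays. On leaving out an array, 2 to 3 were called in each. Those higher in OX went from 0 to 3 in the fit of all 15 arrays, to 3 with Storey's q-values and to 2 at an unadjusted p under 0.05, with 0 to 3 on leaving out an array. For the 33 members not well above background on any WT leaf array, the signal limits the OX differences to bounds.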
